A study of Mus musculus with 6 samples.

Results

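Cohesin is the protein ring that holds sister chromatids together, and the genes described here encode its meiotic subunits, their mitotic paralogs and a protector of meiotic cohesin. They were found by symbol in the deposited gene table, where 10 of 29333 genes matched: the meiotic subunits Rec8, Rad21l, Smc1b and Stag3, the mitotic paralogs Rad21, Smc1a, Stag1 and Stag2, the shared subunit Smc3, and the shugoshin gene Sgo2a. The rule used no measured value. The study sequenced RNA from whole mouse testes collected on postnatal day 16 from Hsf5-/- knockouts and from controls. Control samples are labelled wild type, although by the design text an Hsf5+/- testis could also count as a control, and they form 1 group called control. Of 3 listed samples in each group, 2 were analysed here, knockout 1 and knockout 3 against control 1 and control 2. The deposited gene table has no value column for knockout 2 or control 3. The sources used here do not give the strain, the kind of Hsf5 allele or any pooling of animals. Nothing in the labels says that samples of a group came from separate animals, so a p-value reflects just the spread among the samples analysed, which may be technical.

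A cohesin complex joins an SMC1 protein and an SMC3 protein through a kleisin, and an SA (STAG) protein binds the kleisin. Germ cells entering meiosis replace most parts of the somatic ring: REC8 and RAD21L are meiotic kleisins beside RAD21, SMC1B stands in for SMC1A, STAG3 stands in for STAG1 and STAG2, and SMC3 is common to all forms. These complexes build the chromosome axes on which homologs pair and recombine. HSF5 is a member of the heat shock factor family that is expressed in spermatocytes.

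Depth lay between 16209093 and 18557898 reads per library, recovered from the normalised values. Neither pair of libraries agreed within sampling noise, since chi-square divided by its degrees of freedom was 5.03 for the knockouts and 14.7 for the controls. Hsf5 itself had normalised read counts (reads divided by the size factor of the library) of 1926 and 1602 in the knockout libraries, against 2541 and 3147 in the controls. It was lower in both knockouts but not absent, and a gene-level count cannot tell which exons the remaining reads came from. All 12 markers of pachytene spermatocytes fell, with summed normalised read counts of 17460 to 21451 in the knockouts against 56305 to 84041 in the controls. Of 15 early meiotic prophase markers 3 fell, with sums of 40564 to 49272 against 50022 to 55257, and of 15 Sertoli cell markers 5 rose, with sums of 149839 to 157782 against 127783 to 135144. Of 12 spermatogonial markers 4 rose and 1 fell. None of 20 tested Leydig, peritubular myoid, macrophage and endothelial markers was called by limma, and 2 had an unadjusted limma p under 0.05. Their median log2 fold changes were -0.26 (Leydig, all 6 negative), 0.03 (myoid), 0.11 (macrophage) and 0.19 (endothelial, all 5 positive). Leydig sums were 4347 and 2968 in the knockouts, against 3123 and 6067 in the controls. No gene of these lists was at 0 in all libraries. Their part in the cohesin values was not tested, and in whole testis fewer cells of a type and less RNA per cell cannot be told apart.

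Cohesin transcripts differed little in level between the groups. Group means of the 10 genes in knockout testes lay between 73.3% of the control mean for Sgo2a and 119% for Smc3. Stag3 fell and Smc3 rose (limma, Benjamini-Hochberg adjusted p under 0.05 over 17480 genes), and the other 8 did not pass the test. The same test called 16.8% of all tested genes, 13.5% lower and 3.28% higher in the knockouts, so 2 of 10 is near the background. The median log2 fold change was 0.06 over the 10 genes and 0.01 over all tested genes. It was -0.04 over the 4 meiotic subunits, with 1 fall called by limma (Stag3). Over the 4 mitotic paralogs it was 0.08, with no call by limma and 1 unadjusted limma p under 0.05 (Stag1). Of all 10 genes 4 had an unadjusted limma p under 0.05, where 31% of all tested genes did. In 6 of the 10 genes the libraries of the groups did not overlap, as in 61.7% of all tested genes. The authors' deposited table gives Stag3 and Smc3, 2 of the members, an adjusted p under 0.05, as it does 13.5% of the genes it adjusts.

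**Figure D1:**
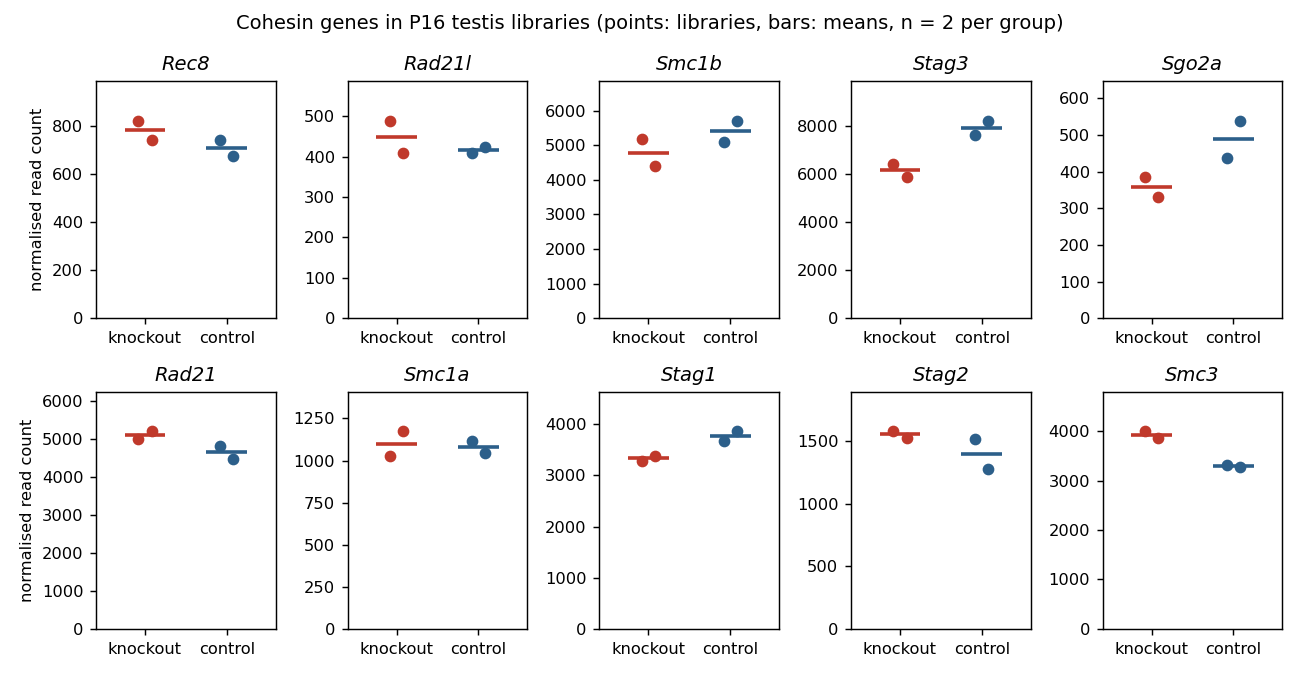
Normalised read counts (vertical axes, from 0) of the 10 cohesin genes in each library, knockout left of control. Points are libraries and bars are means of 2. The groups separate for Stag3, Sgo2a, Rad21, Stag1, Stag2 and Smc3, and the ranges overlap for Rec8, Rad21l, Smc1b and Smc1a.

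**Figure D2:**
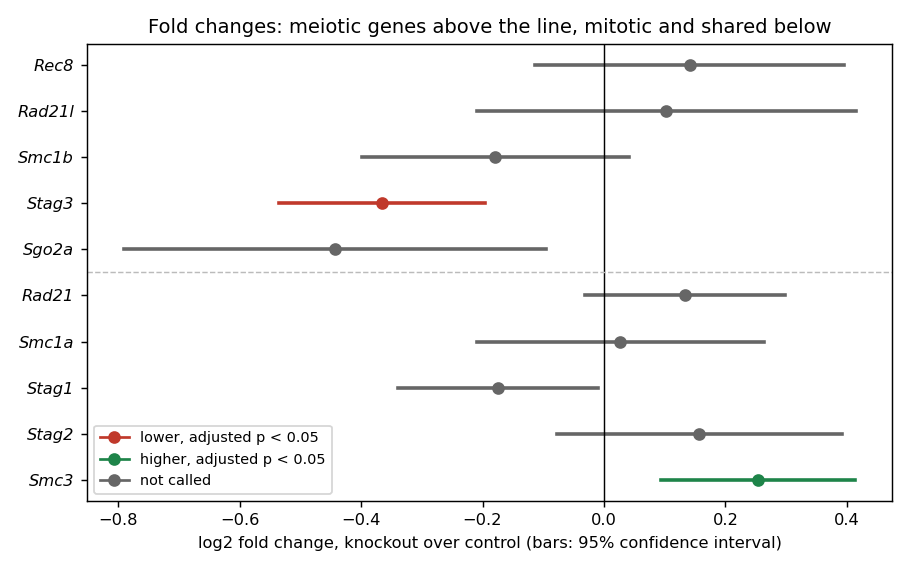
Log2 fold change of knockout over control (horizontal axis) for each gene, with bars for the 95% confidence interval from limma. Meiotic genes stand above the dashed line, mitotic and shared ones below it. Stag3 at -0.37 and Smc3 at 0.25 are the coloured, called genes.

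Promoters are shown for the called genes, Stag3 and Smc3, and for 2 meiotic subunits that were not called, Smc1b and Rec8. The windows run from 250 bases before to 50 bases after a RefSeq start site (build GRCm38.p6, which is not the build mm39 named in the submitters' processing notes). Capitals mark matches, on either strand, to any of 6 motifs chosen with these windows in view. They are the E2F core GCGGGAA, the E-box CACGTG, the STRA8-type motif CNCCTCAG, a MYB motif TAACNG, the heat shock element of alternating GAA and TTC units with 2 free bases between them, and the CCAAT box.
Stag3, chr5:138280259-138280558, plus strand: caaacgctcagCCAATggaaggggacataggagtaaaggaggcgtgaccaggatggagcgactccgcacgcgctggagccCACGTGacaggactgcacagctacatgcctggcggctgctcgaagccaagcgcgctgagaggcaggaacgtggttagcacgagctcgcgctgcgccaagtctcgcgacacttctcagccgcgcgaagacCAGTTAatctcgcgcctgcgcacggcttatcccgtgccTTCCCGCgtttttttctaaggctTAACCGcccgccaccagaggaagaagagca
Smc3, chr19:53600146-53600445, plus strand: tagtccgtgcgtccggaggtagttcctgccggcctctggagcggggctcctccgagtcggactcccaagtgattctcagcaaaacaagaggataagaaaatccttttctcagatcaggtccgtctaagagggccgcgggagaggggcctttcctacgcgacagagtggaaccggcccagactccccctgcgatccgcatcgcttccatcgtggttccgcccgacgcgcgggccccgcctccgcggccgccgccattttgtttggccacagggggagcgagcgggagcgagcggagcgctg
Smc1b, chr15:85131908-85132207, minus strand: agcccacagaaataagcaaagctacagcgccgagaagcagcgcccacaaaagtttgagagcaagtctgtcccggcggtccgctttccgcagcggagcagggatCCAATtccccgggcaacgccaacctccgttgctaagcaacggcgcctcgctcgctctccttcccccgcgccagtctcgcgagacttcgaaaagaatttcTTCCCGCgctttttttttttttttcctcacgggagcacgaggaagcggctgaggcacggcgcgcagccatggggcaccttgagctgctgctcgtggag
Rec8, chr14:55617916-55618215, plus strand: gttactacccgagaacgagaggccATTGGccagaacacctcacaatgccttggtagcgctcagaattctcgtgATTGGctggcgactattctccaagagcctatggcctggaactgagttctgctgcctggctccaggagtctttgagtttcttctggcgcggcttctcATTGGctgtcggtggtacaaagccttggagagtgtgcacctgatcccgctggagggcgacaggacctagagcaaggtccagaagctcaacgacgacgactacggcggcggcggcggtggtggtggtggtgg
The E2F core, which is bound by the meiotic gene repressor E2F6 among others, was read as TTCCCGC at -3 to 4 in Stag3 and at -48 to -42 in Smc1b, counted from the start site with no position 0. It occurs in 4.6% of 32851 promoter windows of the same length. Stag3 also held an E-box at -170 to -165 (7.15% of windows) and 2 MYB motifs (23.3% of windows). Rec8 held 3 CCAAT boxes and none of the other motifs. A CCAAT box was also present in windows of Rad21l, Smc1b, Stag3, Smc1a, Stag1 and Sgo2a, while 37.4% of all windows hold one. The Smc3 window held none of the 6 motifs. The E2F core was also present in windows of Smc1a, Stag1 and Sgo2a, so it did not separate meiotic from mitotic genes. No window of the 8 cohesin genes in the table held the heat shock element (0.603% of windows) or the STRA8-type motif (7.94%). Rad21 and Stag2 had no entry.

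The kleisins did not differ beyond the test's threshold. Rec8 (chromosome 14), whose product keeps sister centromeres joined until the second meiotic division, had normalised read counts of 822 and 742 in the knockouts, against 743 and 674 in the controls. The libraries of the groups overlapped narrowly, and the log2 fold change was 0.14 (95% confidence interval -0.11 to 0.40, limma Benjamini-Hochberg adjusted p = 0.436). Rad21l (chromosome 2), the kleisin of early prophase that takes part in homolog synapsis, had counts of 489 and 409 in the knockouts, against 409 and 423 in the controls. Knockout 1 stood above the other 3 libraries, which lay close together. The log2 fold change of Rad21l was 0.10 (interval -0.21 to 0.41, limma adjusted p = 0.658), and it was -0.03 without knockout 1. Rad21 (chromosome 15), the kleisin of mitotic cells that is also present in spermatocytes, had counts of 4995 and 5211 in the knockouts, against 4820 and 4488 in the controls. Both knockouts stood above both controls, by a log2 fold change of 0.13 (interval -0.03 to 0.30, limma adjusted p = 0.25).

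Among the SMC subunits the shared one rose and the SMC1 paralogs did not pass the test. Smc3 (chromosome 19) had normalised read counts of 4000 and 3864 in the knockouts, against 3326 and 3267 in the controls. The groups were well apart and libraries within a group differed by less than the gap between groups. Smc3 had a log2 fold change of 0.25 with an SE of 0.07 (limma, Benjamini-Hochberg adjusted p = 0.0404). The rise was not called when any 1 library was left out (adjusted p from 0.0964 to 0.222), with log2 fold changes of 0.23 to 0.28. Smc1b (chromosome 15), the meiotic SMC1, had counts of 5168 and 4390 in the knockouts, against 5091 and 5711 in the controls. Knockout 1 lay between the controls and knockout 3 below them, and the log2 fold change was -0.18 (interval -0.40 to 0.04, limma adjusted p = 0.25). Smc1a, the mitotic SMC1 on the X chromosome, had counts of 1027 and 1174 in the knockouts, against 1114 and 1043 in the controls. Its groups overlapped fully, with a log2 fold change of 0.03 (interval -0.21 to 0.26, limma adjusted p = 0.892).

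The SA subunits included the only fall called by limma among the 10 genes. Stag3 (chromosome 5), the meiotic SA protein needed for axis formation and for stable REC8 and RAD21L complexes, had normalised read counts of 6436 and 5909 in the knockouts, against 7657 and 8244 in the controls. Both knockouts stood below both controls, and the mean of 6172 ± 373 in knockout testes was 77.6% of the control mean of 7950 ± 416 (SD, n = 2 each). This was a log2 fold change of -0.37 with an SE of 0.07 (limma, Benjamini-Hochberg adjusted p = 0.0118). For Stag3 the authors' deposited table gives -0.37 (standard error 0.0906, adjusted p 0.000821). The call was lost without knockout 3 (-0.30, limma adjusted p = 0.115) and without control 2 (-0.31, limma adjusted p = 0.154). Stag1 (chromosome 9), a mitotic SA protein, had counts of 3285 and 3387 in the knockouts, against 3673 and 3860 in the controls. The groups did not overlap, but the log2 fold change of -0.17 (interval -0.34 to -0.01) did not pass the adjusted test (limma adjusted p = 0.139). Stag2, the X-linked mitotic SA gene, had counts of 1579 and 1528 in the knockouts, against 1516 and 1280 in the controls. Knockout 3 was barely above control 1, and the log2 fold change was 0.16 (interval -0.08 to 0.39, limma adjusted p = 0.343).

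Sgo2a (chromosome 1) encodes the shugoshin that shields centromeric REC8 from cleavage in meiosis I. Its normalised read counts were 386 and 331 in the knockouts, against 438 and 539 in the controls. Both knockouts were below both controls. The fold change on the log2 scale, -0.44, was not called (interval -0.79 to -0.10, limma Benjamini-Hochberg adjusted p = 0.0849). It ranged from -0.59 without control 1 to -0.29 without control 2, called in neither (limma adjusted p = 0.0863 and 0.401). The controls themselves differed by 0.30 on the log2 scale. Sgo2a rested on 323 to 544 recovered reads per library.

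The size factors bear on every direction given here, because another scaling moves all genes together. Scaled to Sertoli markers, the median log2 fold change of all genes was -0.22, Stag3 stood at -0.61 and Smc3 at 0.01 with its call lost. With early meiotic prophase markers as the scale the median was 0.15, Stag3 stood at -0.23 and Smc3 at 0.39, and neither was called. Scaling to 10 germ cell genes of all stages, of which 5 fell themselves, gave a median of 0.38, with Stag3 at -2.3e-05 and Smc3 at 0.62. Each scaling shifts all genes nearly alike, so positions relative to the median of all genes had to stay nearly the same. On that measure Stag3 lay at -0.38 and Smc3 at 0.24 under each of these 3 scalings, which is no separate support. On the same relative measure Sgo2a lay at -0.46, Smc1b and Stag1 at -0.19 to -0.20, and Rec8, Rad21, Stag2, Rad21l and Smc1a above the median.

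Levels can be compared between genes only per length, and here are normalised reads per kilobase of annotated exon (GENCODE M21, GRCm38). In both controls Stag3 had the highest level per kilobase of the 10 genes, at 1336 and 1438, while in the knockouts it ranked 3, at 1123 and 1031. Smc1b had 1277 and 1085 per kilobase in the knockouts and 1258 and 1411 in the controls, and Rad21 had 1180 and 1231 in the knockouts and 1139 and 1061 in the controls. Within libraries Smc1b lay above Stag3 in both knockouts and below it in both controls. The ranges of Smc1b and Stag3 overlapped in both groups. Rad21 lay below both in the controls, and in the knockouts it lay above Stag3 and overlapped Smc1b. The order of these genes was not tested. Smc3 ranked 4 in every library, with levels of 722 and 697 per kilobase in the knockouts against 600 and 590 in the controls. Stag1, Rad21l and Rec8 followed at overlapping or neighbouring levels, between 230 and 328 per kilobase in all 4 libraries. Below them, Smc1a and Stag2 overlapped between 155 and 203 per kilobase, and Sgo2a was last, at 55.1 and 47.2 in the knockouts against 62.5 and 77.0 in the controls. The annotated exon length is 1.66 kb for Rad21l and 11.8 kb for Stag1, and levels per length depend on how much untranslated sequence the annotation holds.

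**Figure D3:**
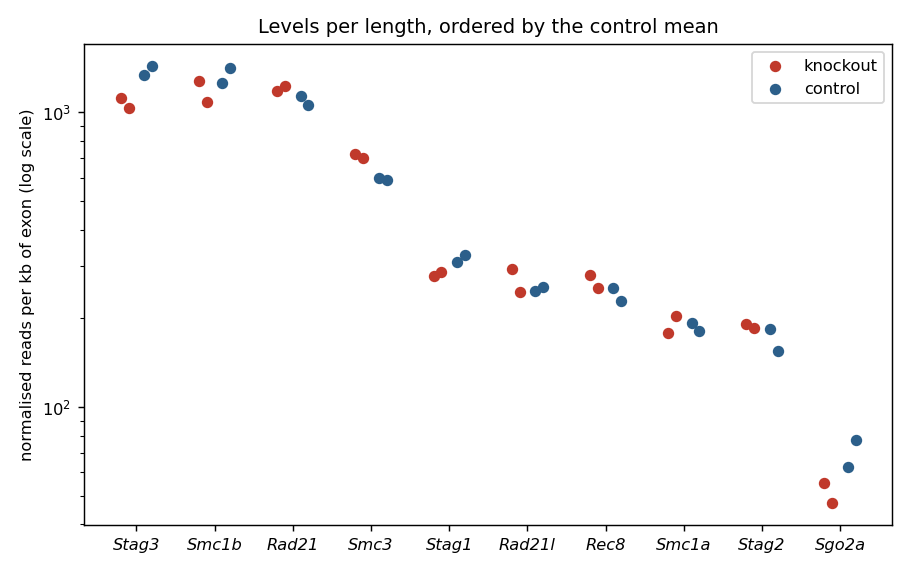
Normalised reads per kilobase of exon (vertical axis, log scale) for the 10 genes in order of the control mean, with a point per library, knockout left of control. Stag3 is the highest gene in the controls at 1336 and 1438 and lies below Smc1b and Rad21 in the knockouts at 1123 and 1031.

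Summed by place in the ring, transcripts per kilobase leaned to different sides. SA genes together had 1592 and 1503 normalised reads per kilobase in the knockouts, against 1831 and 1920 in the controls. SMC1 genes together had 1455 and 1288 in the knockouts, against 1451 and 1592 in the controls. Kleisins together had 1755 and 1730 in the knockouts, against 1639 and 1546 in the controls. The SA and kleisin sums did not overlap between groups, and the SMC1 sums did, where 61.7% of all single tested genes did not overlap. Such sums move with the size factor. Scaled to Sertoli markers, the log2 fold changes of Rec8, Rad21l and Rad21 were -0.10, -0.14 and -0.11. Scaled to germ cell genes, those of Stag3, Stag1 and Stag2 were -2.3e-05, 0.19 and 0.52. Within the SA place Stag3 made up 70.5% and 68.6% of the transcripts per kilobase in the knockouts, against 73.0% and 74.9% in the controls. Stag2 made up 12.1% on average in the knockouts, against 9.04% in the controls. Shares of Stag3, Stag1 and Stag2 all failed to overlap between groups, as did 61.7% of all single tested genes. The shares add to a whole, so they are not independent of each other. Among kleisins Rad21 held 67.2% and 71.2% in the knockouts, against 69.5% and 68.6% in the controls. Rad21 thus had the largest share of kleisin transcripts per kilobase in every whole-testis library. Which cells these transcripts came from was not tested. Smc1b held 87.8% and 84.2% of the SMC1 transcripts in the knockouts, against 86.7% and 88.6% in the controls.

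Meiotic subunits were compared with their mitotic paralogs as the log2 ratio of the counts within each library, which does not move with the size factor. The Stag3 to Stag2 ratio was 2.03 and 1.95 in the knockouts, against 2.34 and 2.69 in the controls, a difference of -0.52. Stag3 to Stag1 was 0.97 and 0.80 in the knockouts, against 1.06 and 1.09 in the controls, a difference of -0.19. These 2 ratios were lower in both knockouts than in both controls. Smc1b to Smc1a was 2.33 and 1.90 in the knockouts, against 2.19 and 2.45 in the controls, with overlap and a difference of -0.21. The kleisin ratios barely differed: Rec8 to Rad21 averaged -2.71 in both groups and Rad21l to Rad21 averaged -3.51 in the knockouts and -3.48 in the controls. With 2 libraries per group the two-sided exact permutation test cannot give a p below 0.333. It gave 0.333 for both Stag3 ratios, 0.667 for Smc1b to Smc1a and 1 for both kleisin ratios (Benjamini-Hochberg adjusted over the 5 ratios 0.833, 1 and 1), so no ratio passed.

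**Figure D4:**
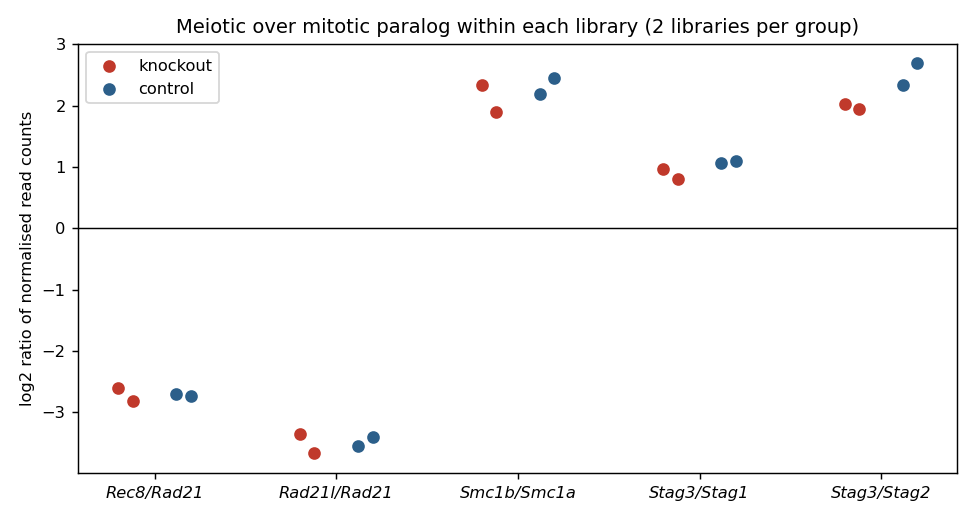
Log2 ratio of the normalised read counts of a meiotic subunit over its mitotic paralog (vertical axis) in each library, knockout left of control. The Stag3 to Stag2 ratio is 2.03 and 1.95 in the knockouts against 2.34 and 2.69 in the controls, and the kleisin ratios overlap.

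Of 32 tested regulators of cohesin 4 fell and 1 rose, with a median log2 fold change of 0.09. These calls were 15.6% of the regulators, near the 16.8% of all tested genes. Without the filter on low values 1 of 33 regulators fell, where 2.78% of all genes fell. Without the mean-variance trend no regulator was called, where 0.229% of all genes were. Scaled to germ cell genes 2 regulators fell and 21 rose, where 38.4% of all genes rose, and scaled to Sertoli markers 8 fell and none rose, where 23.3% of all genes fell. Among loading and release factors Nipbl, the loader, fell, with normalised read counts of 4237 and 3906 in the knockouts, against 4863 and 6059 in the controls. Its log2 fold change was -0.42 (limma Benjamini-Hochberg adjusted p = 0.03), with the call lost without knockout 1, knockout 3 or control 2 (limma adjusted p = 0.0816, 0.204 and 0.203). None of the 11 genes of acetylation and cohesion establishment was called by limma, and 1 had an unadjusted limma p under 0.05. Wdhd1, which had the highest mean normalised read count of the list but not the highest level per kilobase, stood at a log2 fold change of 0.14 (limma adjusted p = 0.382). Of the boundary factors Ctcf stood at 0.10 and its testis paralog Ctcfl at 0.17, neither of them called (limma adjusted p = 0.481 and 0.525).

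Genes of cohesin protection and cleavage included Meikin, which had the lowest log2 fold change of the 32 regulators. Meikin, a meiosis-specific kinetochore protein that acts with shugoshin to protect REC8, had normalised read counts of 132 and 88.1 in the knockouts, against 340 and 351 in the controls. Both knockouts were far below the controls, which agreed closely, at a log2 fold change of -1.67 with an SE of 0.22 (limma, Benjamini-Hochberg adjusted p = 0.00146). The log2 fold change of Meikin was -1.65 without control 2. Its call was lost without the mean-variance trend (limma adjusted p = 0.093). Regulatory subunits of the phosphatase PP2A, the partner of shugoshin, moved in opposite directions. Ppp2r5c fell, with counts of 2395 and 2193 in the knockouts against 3318 and 4750 in the controls (log2 fold change -0.79, limma adjusted p = 0.00825). Ppp2r5a rose, with counts of 1033 and 1035 against 842 and 720 (0.41, limma adjusted p = 0.0356). Pttg1, the securin that inhibits separase, fell by 0.49 on the log2 scale (limma adjusted p = 0.0478). Its call was lost without knockout 3 (-0.31), control 1 (-0.58) or control 2 (-0.40), with limma adjusted p of 0.317, 0.109 and 0.301, and with library totals (0.0736). In total 3 of 14 tested genes of this list fell and 1 rose, with a median of 0.08, where 13.5% of all tested genes fell and 3.28% rose. Scaled to germ cell genes 2 of the list fell and 8 rose, where 8.4% of all tested genes fell and 38.4% rose. Scaled to Sertoli markers 6 fell and none rose, beside 23.3% and 0.292% of all genes. The median of this list was 0.02 without control 2 and 0.06 without knockout 3. Without the filter on low values 1 of 15 tested genes fell, where 2.78% of all genes fell. Without the mean-variance trend none was called, where 0.229% of all genes were. Ppp2r5c was not called without knockout 3 (-0.73, limma adjusted p = 0.0769), and Ppp2r5a was not called without knockout 1, knockout 3 or control 2. The mitotic shugoshin gene Sgo1 stood at 0.08 (limma adjusted p = 0.75), chosen after its value was seen, and Sgo2b had 1 and 2 reads in single libraries and was not tested.

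Related SMC complexes were read from the same fit. Of 9 genes of the SMC5/6 complex, which acts in DNA repair, 5 fell and none rose, with a median of -0.29, where 13.5% of all tested genes fell. Scaled to germ cell genes 1 fell and 2 rose with a median of 0.08, where 8.4% of all tested genes fell and 38.4% rose. Scaled to early prophase markers 1 fell (8.06% of all genes), scaled to Sertoli markers 7 fell (23.3%) and with library totals 3 fell (11.5%). Of 8 condensin genes, which compact chromosomes, 2 fell, with a median of -0.04, beside the same 13.5%. Scaled to germ cell genes 1 condensin gene fell and 4 rose with a median of 0.33, beside 8.4%, 38.4% and a median of 0.38 over all genes. Scaled to early prophase markers none was called (9.38% of all genes) and scaled to Sertoli markers 3 fell (23.3%). With TMM factors (13.2% of all genes lower) or library totals (11.5%) 1 condensin gene fell. Eid3, the testis paralog of the subunit gene Nsmce4a, had normalised read counts of 163 and 115 in the knockouts, against 692 and 1554 in the controls (log2 fold change -2.91, SE 0.34, limma Benjamini-Hochberg adjusted p = 0.000899). Control 2 was well above control 1, by 1.17 on the log2 scale, and leaving out control 2 gave -2.33 and leaving out control 1 gave -3.49. Eid3 was not called without the mean-variance trend (limma adjusted p = 0.1002). Its ubiquitous counterpart Nsmce4a stood at 0.05 (limma adjusted p = 0.736), chosen after its value was seen. Slf1 fell by 0.60, Nsmce1 by 0.55, Smc6 by 0.37 and Smc5 by 0.29 on the log2 scale (limma adjusted p from 0.00422 to 0.0392). The median of the SMC5/6 list was -0.34 without control 1, -0.24 without control 2, -0.31 without knockout 1 and -0.30 without knockout 3. Without the filter on low values 2 of the list fell, where 2.78% of all genes fell. Without the mean-variance trend none of the list was called, where 0.229% of all genes were.

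The condensin core gene Smc4 fell, with normalised read counts of 6754 and 6342 in the knockouts, against 9638 and 11123 in the controls. Its log2 fold change of -0.66 (SE 0.08, limma Benjamini-Hochberg adjusted p = 0.00121) stayed called without each library in turn, while that of Ncapg (-0.32, limma adjusted p = 0.0498) was lost without any of them. Smc2, the partner of Smc4, stood at 0.02 (limma adjusted p = 0.904), chosen after its value was seen. Set beside these, the median log2 fold change was -2.85 over the 12 pachytene markers and -0.15 over the 15 early prophase markers, and all 10 cohesin genes lay between -0.44 and 0.25. Between the controls, control 2 exceeded control 1 by a median of 0.77 in the pachytene markers, 0.05 in the early prophase markers and 0.01 in the cohesin genes. Within the cohesin genes that median was 0.08 for the meiotic subunits and -0.10 for the mitotic paralogs, so the controls differed in opposite directions there.

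**Figure D5:**
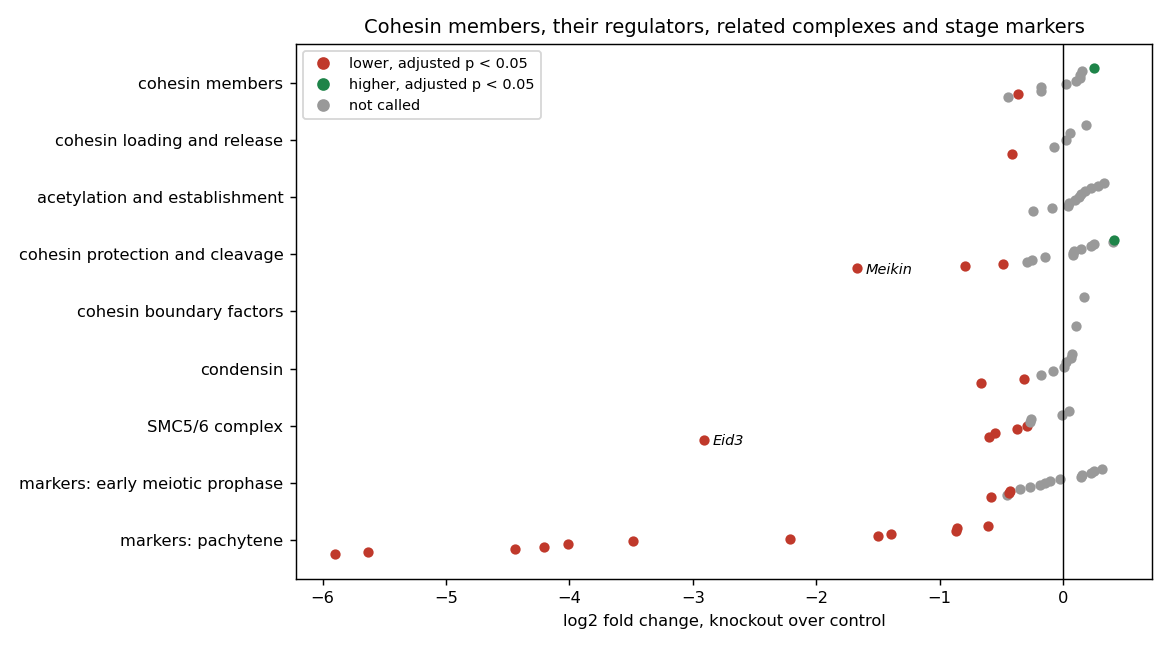
Log2 fold change of knockout over control (horizontal axis) for each tested gene of the cohesin group, its regulators, related complexes and 2 stage marker lists, with called genes coloured. The cohesin genes lie between -0.44 and 0.25, Meikin at -1.67 and Eid3 at -2.91 stand out among regulators and related complexes, and the pachytene markers reach -5.90.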

How the data were processed

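RNA from whole testes was measured by RNA sequencing. Build mm39 and the tools cutadapt, Bowtie2, featureCounts and DESeq2 are named in the submitters' processing notes. The sources used here give no roles, settings or versions for them, and no strand setting or annotation release. The authors' deposited table holds a normalised signal per library, that is, a read count divided by 1 size factor. Every value (100% per library) was a whole multiple of the smallest value in its column within 1e-06, and dividing by it gave the recovered reads. For knockout 1 and control 2 that smallest value was 1.002 and 0.9916, too near 1 for a check of the columns to tell reads from rounding, so depths, library totals and TMM factors that use them rest on the 1e-06 match alone. Per the file headers, the table also holds a log2 fold change with its standard error, a test score, and a p-value with its adjusted value.

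Values were tested as log2(value + 1) by limma 3.58.1 in R 4.3.3, with a trend of variance on mean. A mean of at least 10 left 17480 genes, all 10 members among them. Variances had 6.3 prior and 2 residual degrees of freedom. Genes were called at an adjusted p under 0.05. The planned count tests (edgeR and DESeq2) were withdrawn after they had been run, since that check refused recovered reads for those columns. TMM factors came from edgeR 4.0.16. The fit was tested on simulated data. Permutation tests used scipy 1.17.1. Exon lengths came from GENCODE M21, and promoters from RefSeq (8 of 10 members matched).

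Members and lists were chosen with earlier results of these data known. The text names all members, the called genes of each related list (at most 5), or its most abundant member where none was called. Outside this rule it also names Ctcfl, Sgo1, Sgo2b, Nsmce4a and Smc2.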

Additional observations from a re-analysis of the deposited data

How the results depend on the processing

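The count of called genes, 2939 here, was 852 without a filter on low values, 40 without the mean-variance trend, 1640 scaled to early prophase markers and 8181 scaled to germ cell genes, and it ranged from 920 to 2433 without 1 library. Falls were 80.5% of calls, 57.0% with library totals, 98.8% scaled to Sertoli markers and 18.0% scaled to germ cell genes. The number of cohesin genes called, 2 here, was 2 under both other pseudocounts, TMM factors and library totals, and 3 scaled to Sertoli markers. It was 0 without the filter, 0 without the trend and 0 scaled to early prophase markers, and 6 scaled to germ cell genes. Without 1 library the log2 fold change ranged from -0.43 to -0.30 for Stag3 and from 0.23 to 0.28 for Smc3. Of all genes 46.8% were called scaled to germ cell genes, 23.6% scaled to Sertoli markers and 9.38% scaled to early prophase markers. With library totals 20.1% were called and with TMM factors 16.9%. The share was 2.9% without the filter and 0.229% without the trend. The cause of these differences was not tested. At an unadjusted p under 0.05 limma had 4 cohesin genes, where 31.0% of all genes passed. Under the alternatives that number lay between 0 (early prophase scaling, 19.7% of all genes) and 6 (germ cell scaling, 55.1%), with 1 without the trend (24.5%), 5 with library totals (35.4%), 5 without control 1 (30.7%), and 2 without knockout 3 (20.1%) or control 2 (20.5%).

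Scaling to Sertoli markers reversed Rec8 (-0.10), Rad21l (-0.14), Rad21 (-0.11), Smc1a (-0.21), Stag2 (-0.084), Ctcf (-0.14) and Wdhd1 (-0.10). Scaling to germ cell genes reversed Smc1b (0.19), Stag1 (0.19), Smc5 (0.077) and Ncapg (0.049). Such scalings shift all genes nearly alike. Without 1 library Smc1a ranged from -0.070 to 0.12, Rad21l from -0.026 to 0.23, Stag2 from 0.035 to 0.28, Smc1b from -0.30 to -0.061, Rec8 from 0.068 to 0.22, Rad21 from 0.082 to 0.18, Stag1 from -0.21 to -0.14 and Sgo2a from -0.59 to -0.29, none of them called. The Rec8 to Rad21 ratio difference ranged from -0.10 to 0.11, Rad21l to Rad21 from -0.19 to 0.13, Smc1b to Smc1a from -0.42 to 0.0084, Stag3 to Stag1 from -0.27 to -0.11 and Stag3 to Stag2 from -0.70 to -0.35. No paired analysis was possible because the analysed columns of the groups share only replicate number 1. Alternatives for genes and lists outside the 10 members were added after seeing the data. The planned count tests on recovered reads are not reported.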
